A study of Mus musculus with 6 samples.

Results

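The Hox genes of L4/5 dorsal root ganglia (DRGs) were followed across 6 microarrays. They were taken as every gene of the deposited table whose symbol is Hox, a cluster letter from a to d and a number, which gave 39 of 24647 rows: 11 genes of cluster A, 10 of cluster B, 9 of cluster C and 9 of cluster D. The members were chosen by symbol, but the family itself was selected on the LBP and PBS intensities of these same arrays, so the differences between the groups are given as a description. The donors of the ganglia were wild-type C57BL/6 males, adults of 8 to 12 weeks. One group had received Lycium barbarum polysaccharides (LBP), a wolfberry extract, by mouth at 100 mg/kg for 13 days, and the control group had received phosphate-buffered saline (PBS). RNA of each group was measured on 3 GeneChip Mouse Gene 2.0 ST arrays, written below as LBP 1 to LBP 3 and PBS 1 to PBS 3. The methods describe 3 separate groups of mice, with 3 mice per group, and call the 3 microarray analyses biologically independent. Whether an array holds the RNA of a single mouse or of several is not stated outright, and p-values measure only the spread between these arrays, which may be partly technical.

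Hox genes encode homeodomain transcription factors that give cells their position along the head-to-tail axis. Within each cluster the genes are arrayed on the chromosome in the order in which they are used along the body, from low-numbered genes at the hindbrain and neck to high-numbered genes at the trunk, loin and tail, and genes with the same number in different clusters form a paralog group. Neurons and glia keep much of this code in the adult, and paralog group 9 is best known for the trunk and group 10 for lumbar levels, where L4/5 ganglia lie, while group 11 is best known for sacral levels and the hindlimb and group 13 for the digits and the tail. The genes act on DNA together with Pbx, Meis and Pknox partner proteins, and their silencing outside their domains is kept by Polycomb complexes.

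All values are log2 intensities as deposited. The brightness of different genes also depends on their probes, so levels of different genes are not an order of RNA amount. To give a floor, each value was set against the 95th percentile of 1429 olfactory and vomeronasal receptor genes on the same array, which lay between 5.70 and 5.80, and a gene over it is called above receptor background. The arrays were alike in scale, with medians from 6.45 to 6.46 and correlations between arrays from 0.990 to 0.994. All 11 sensory neuron markers tested were above receptor background on all 6 arrays, with mean values from 9.09 to 12.34.

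Of the 39 Hox genes, 24 were above receptor background on all 6 arrays, against 58.7% of all 24623 genes tested, 11 on none and 4 on some. The share above it was smallest in paralog groups 9 to 13. Among paralog groups 1 to 3, 6 of 8 genes were above background on all arrays, and Hoxb1 was among those below it. Among groups 4 to 8, which pattern the neck and the trunk, 13 of 15 were above it, Hoxc5 was above it on 2 arrays and Hoxb7 on none. Among groups 9 to 13, 5 of 16 were above it on every array, namely Hoxa9, Hoxb9, Hoxc9, Hoxc10 and Hoxd10. Hoxa10 and Hoxd11 were above it on 5 arrays and Hoxd9 on 3, and Hoxa11, Hoxc11 and all 6 genes of groups 12 and 13 were above it on none. At the stricter 99th percentile of the receptor genes, 14 Hox genes remained above on all arrays. Most of them were of groups 4 to 8. Of groups 1 to 3 only Hoxd1 remained, and of groups 9 to 13 only Hoxa9, Hoxb9 and Hoxc9. Hoxc10 was above this percentile on 5 arrays and Hoxd10 on 4.

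**Figure D1:**
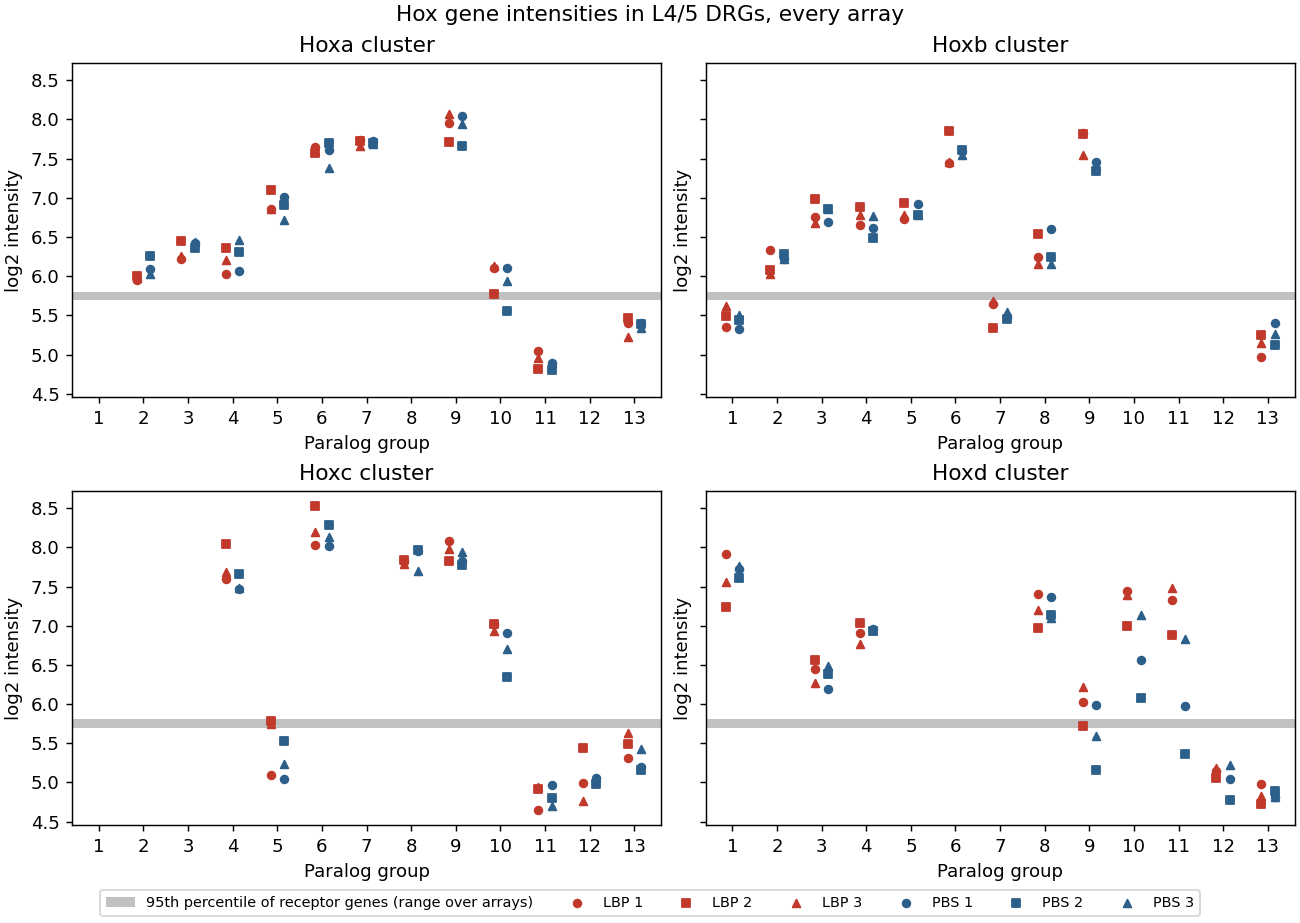
Log2 intensity of the Hox genes reported here, in a panel per cluster, with paralog group on the horizontal axis, 1 point per array (3 LBP in red, 3 PBS in blue) and the receptor background of the arrays as a grey band. Hoxc6, with values from 8.02 to 8.53, lies far above the background, and the genes of groups 12 and 13 lie below it.

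Hoxd11, which with the other group 11 genes patterns the sacrum and the middle segment of the limb, was the Hox gene with the largest difference between the groups. Its values were 7.33, 6.89 and 7.48 after LBP, and 5.97, 5.36 and 6.83 after PBS. All 3 LBP values lay above all 3 PBS values, and PBS 2, the lowest array, was the only one below receptor background. The means were 7.23 ± 0.31 (SD, n = 3) after LBP and 6.06 ± 0.74 (SD, n = 3) after PBS, and the difference of LBP minus PBS was 1.18 (SE 0.31) on the log2 scale. It did not pass the test across all genes (limma, adjusted p = 0.938), and the exact two-sided permutation p of 0.1 is the smallest that 3 arrays against 3 can give. The SD of Hoxd11 over the 6 arrays, 0.82, was at the 99.8th percentile of all genes, but it includes the gap between the groups. Within the PBS group alone the SD was 0.74. Without PBS 2 the difference was 0.83, and without PBS 3 it was 1.57. Its unadjusted p stayed under 0.005 only where PBS 3 was the array left out, and not where any other single array was.

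Its neighbours Hoxd10 and Hoxd9 also had their lowest value on PBS 2. Hoxd10, which with its paralogs specifies lumbar motor neurons and hindlimb innervation, had values of 7.44, 7.00 and 7.39 after LBP and of 6.57, 6.08 and 7.14 after PBS. The groups overlapped, since PBS 3 lay above LBP 2. The difference was 0.68 (SE 0.23), the adjusted p with limma was 0.999, and without PBS 2 the difference fell to 0.43. Hoxd9, a thoracic and lumbar gene that also takes part in limb outgrowth, had values of 6.03, 5.72 and 6.22 after LBP and 5.99, 5.17 and 5.60 after PBS, with a difference of 0.40 (SE 0.20) that became 0.19 without PBS 2 and 0.61 without PBS 1. Its groups overlapped, with PBS 1 above LBP 2, and PBS 2 was again the lowest array. Hoxd12, the next gene of the cluster, was below receptor background on every array and had a difference of 0.12 (SE 0.12). Hoxd10 and Hoxd11 overlap in the annotation, and with probes not examined, signal shared by both genes cannot be told apart from signal of each.

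Hoxd11, Hoxd10 and Hoxd9 were all lowest on PBS 2 and all above their means on LBP 1 and LBP 3. They did not vary together on every array. On PBS 1 Hoxd9 deviated from its mean by 0.21, against -0.37 for Hoxd10 and -0.67 for Hoxd11. On PBS 3 it deviated by -0.19, against 0.20 for Hoxd10 and 0.19 for Hoxd11. The 250 bases before the annotated starts of these genes, as given by RefSeq on GRCm38.p6, are shown because of the shared low array. All are on the plus strand and are written 5′ to 3′, with capitals marking the match to TGATNNAT, a site shape of Hox and Pbx proteins, read on either strand.
Hoxd11, first start, chr2:74679308-74679557: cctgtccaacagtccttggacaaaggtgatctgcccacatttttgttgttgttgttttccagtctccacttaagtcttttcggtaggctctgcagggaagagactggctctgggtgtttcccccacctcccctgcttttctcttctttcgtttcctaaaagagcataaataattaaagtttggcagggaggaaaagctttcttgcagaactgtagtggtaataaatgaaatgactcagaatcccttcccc
Hoxd11, second start, chr2:74682073-74682322: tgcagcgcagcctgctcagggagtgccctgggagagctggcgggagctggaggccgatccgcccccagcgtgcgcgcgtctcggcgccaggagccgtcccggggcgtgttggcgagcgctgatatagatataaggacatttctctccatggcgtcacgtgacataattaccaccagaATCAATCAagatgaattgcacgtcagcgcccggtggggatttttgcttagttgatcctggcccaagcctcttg
Hoxd10, chr2:74691641-74691890: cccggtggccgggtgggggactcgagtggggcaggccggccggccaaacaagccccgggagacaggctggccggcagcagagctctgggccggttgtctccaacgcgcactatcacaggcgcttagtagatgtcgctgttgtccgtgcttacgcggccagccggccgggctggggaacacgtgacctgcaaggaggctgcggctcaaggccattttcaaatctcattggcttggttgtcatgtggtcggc
Hoxd9, chr2:74697513-74697762: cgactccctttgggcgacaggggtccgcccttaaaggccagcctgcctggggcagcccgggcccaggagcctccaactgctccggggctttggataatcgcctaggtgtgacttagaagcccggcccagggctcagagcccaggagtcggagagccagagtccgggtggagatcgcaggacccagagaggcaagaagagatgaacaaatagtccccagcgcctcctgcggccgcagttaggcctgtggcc
TGATNNAT was found in 4 of the 24 promoter windows of Hox genes in the reference, which cover 22 genes, and in 7.68% of 32851 windows of all genes. Among the windows shown, the second start of Hoxd11 held the single match, 73 bases before the start. TTTATNG, a shape of Cdx sites, was found in 2 of the 24 windows and in 9.81% of all, and TATAAA, the TATA box, in 4 of the 24 and in 12.4% of all, with none in the windows shown. The first Hoxd11 window held 2 CpG pairs, and the second held 20, as did that of Hoxd10. A match is a run of letters and not evidence of binding.

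**Figure D2:**
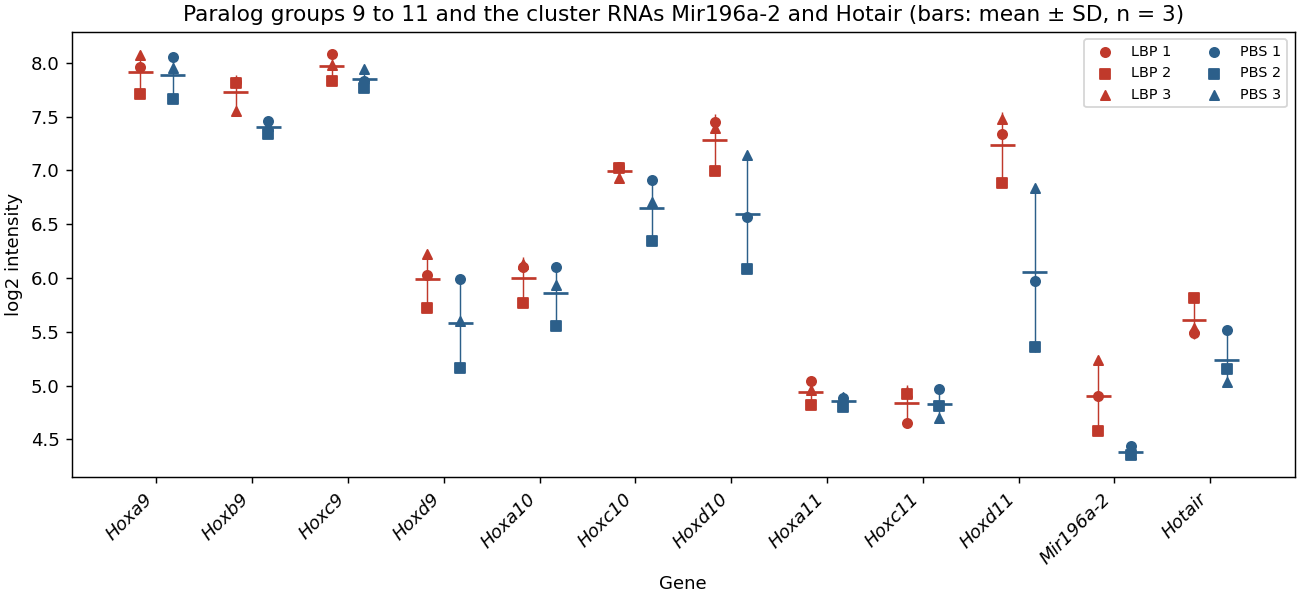
Log2 intensity on each array of the genes of paralog groups 9 to 11 and of the cluster RNAs Mir196a-2 and Hotair, with 1 point per array (LBP in red, PBS in blue) and lines for the mean ± SD of each group (n = 3). The 3 LBP values of Hoxd11 lie above its 3 PBS values, while those of Hoxd10 overlap.

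Outside the D cluster, Hoxb9 and Hoxc10 had LBP values that all lay above their PBS values. Hoxb9, a trunk gene of paralog group 9, had values of 7.82, 7.81 and 7.55 after LBP and 7.46, 7.34 and 7.41 after PBS, with means of 7.73 ± 0.16 and 7.40 ± 0.06 (SD, n = 3 each). The difference of 0.33 (SE 0.11) had an adjusted p of 0.999 with limma, and it stayed between 0.28 and 0.42 when any single array was left out. Hoxc10, another lumbar gene, had values of 7.03, 7.02 and 6.93 after LBP and 6.91, 6.35 and 6.70 after PBS, with a difference of 0.34 (SE 0.14). The LBP values were close together and PBS 2 was low, so that the difference was 0.18 without PBS 2. Hoxa10, the third gene of group 10, had values of 6.10, 5.77 and 6.13 after LBP and 6.10, 5.55 and 5.94 after PBS, with overlapping groups and a difference of 0.14 (SE 0.15) that became -0.02 without PBS 2 and 0.25 without PBS 1 or LBP 2.

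The other genes of paralog groups 9 and 11 had smaller differences. Hoxa11 and Hoxc11, which are below background, had overlapping groups. Hoxa11 had values of 5.05, 4.82 and 4.96 after LBP and 4.89, 4.80 and 4.89 after PBS, a difference of 0.08 (SE 0.10). Hoxc11 had values of 4.65, 4.92 and 4.94 after LBP and 4.97, 4.81 and 4.70 after PBS, a difference of 0.01 (SE 0.12). Hoxa9 and Hoxc9 were well above background and had differences of 0.03 (SE 0.13) and 0.12 (SE 0.11). In paralog groups 9 to 11 all 10 differences were positive, with sizes from 0.01 to 1.18. The uniform sign rested on single arrays, since Hoxa9 (-0.09) and Hoxa10 (-0.02) were negative without PBS 2, Hoxa9 (-0.05) and Hoxc11 (-0.04) without LBP 3, and Hoxc11 also without LBP 2 (-0.03) or PBS 3 (-0.05). Of the 6 genes of groups 12 and 13, 4 were positive and 2 negative, with a median of 0.02.

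Across all 39 genes, none reached an adjusted p under 0.05 with limma, a level reached by 2 of all genes (0.00812%). At an unadjusted p under 0.05, 4 Hox genes (Hoxd11, Hoxd10, Hoxb9 and Hoxc10) were higher after LBP and none was lower, where 2.07% of all genes were higher and 2.65% lower. At an unadjusted p under 0.005, Hoxd11 alone was counted, against 0.187% of all genes higher and 0.296% lower. The groups did not overlap for 3 Hox genes higher (4.35% of all genes) and 2 lower (5.28% of all genes). Of the lower genes, Hoxa2, which patterns the hindbrain and its crest, at 5.95, 6.00 and 5.98 after LBP against 6.09, 6.26 and 6.03 after PBS, had a difference of -0.15 (SE 0.10).

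Hoxb1, Hoxd1, Hoxb2, Hoxa3, Hoxb3 and Hoxd3 had overlapping groups and differences between -0.13 and 0.07. Among them were Hoxb2, Hoxa3, Hoxb3 and Hoxd3, which pattern the hindbrain and the upper neck and were above background on every array, with values between 6.03 and 6.98. At the stricter 99th percentile, Hoxb3 was above it on 5 arrays and Hoxb2, Hoxa3 and Hoxd3 on none. In the annotation Hoxa3 overlaps Hoxa4, Hoxa5 and Hoxa6, Hoxb3 overlaps Hoxb4, and Hoxd3 overlaps Hoxd4. With probes not examined, signal shared with these genes cannot be told apart.

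Along the axis, the median difference was -0.08 in groups 1 to 3, with 3 of 8 genes positive, 0.00 in groups 4 to 8, with 9 of 15 positive, and 0.12 in groups 9 to 13, with 14 of 16 positive. Of these 16 genes, however, 8 were above receptor background on no array and 3 on only some. Over all genes the median was -0.00, and 49.7% of differences were positive. Without PBS 2 the median of groups 9 to 13 was 0.04. By cluster, the median was 0.00 in A and in B, 0.12 in C and 0.07 in D.

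**Figure D3:**
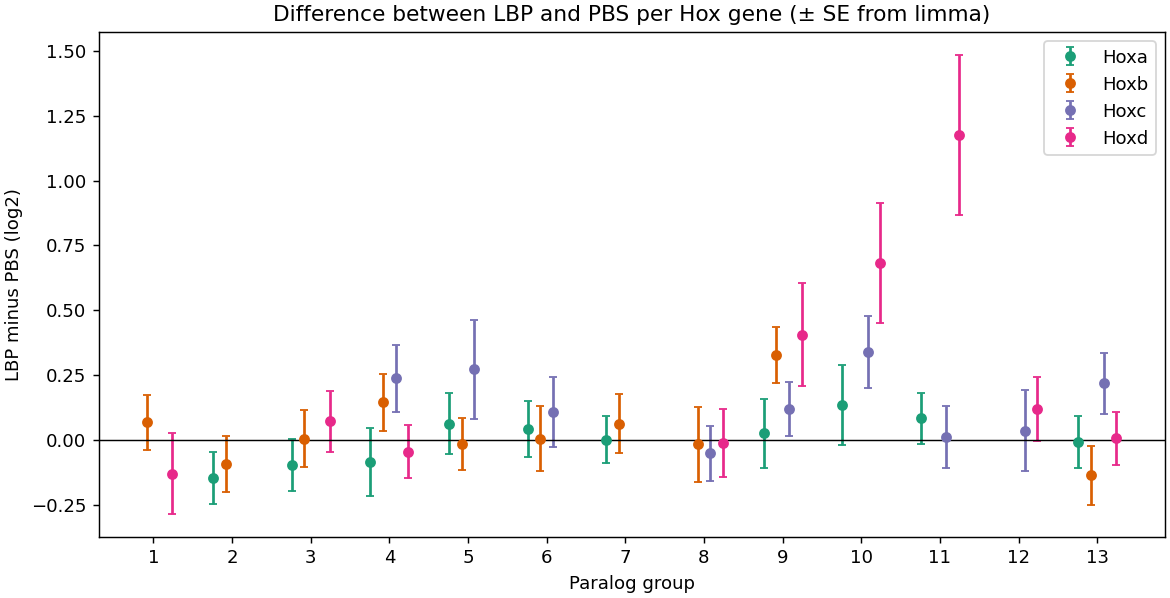
Difference of LBP minus PBS (log2 scale) for each Hox gene reported here by paralog group, with colours for the clusters and bars of ± SE from the limma fit. Hoxd11 stands highest at 1.18, and the genes of groups 1 to 8 lie between -0.15 and 0.27.

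The array pattern behind these values was uneven. PBS 2 was the lowest array for 11 of the 16 genes of groups 9 to 13, and for 9 of the 10 of groups 9 to 11, the exception being Hoxc11, while 16.8% of all genes had their lowest value on PBS 2. Among the LBP arrays, LBP 2 was the lowest for Hoxa9, Hoxa10, Hoxa11, Hoxc9, Hoxd9, Hoxd10 and Hoxd11. For Hoxb9 and Hoxc10 the lowest LBP array was LBP 3, and for Hoxc11 it was LBP 1. The median deviation of groups 9 to 11 from their gene means was -0.31 on PBS 2, against 0.19 on LBP 1, -0.00 on LBP 2, 0.14 on LBP 3, 0.04 on PBS 1 and -0.00 on PBS 3. Fibroblast markers were high on PBS 2 and low on LBP 1. The median of these 13 genes relative to the PBS mean was 0.27 on PBS 2 and -0.63 on LBP 1. It was -0.02 on LBP 2, -0.22 on LBP 3, -0.17 on PBS 1 and -0.08 on PBS 3. Of the 13 genes, 12 were lower after LBP, 3 of them at an unadjusted p under 0.05 with limma, against 2.65% of all genes. The mean level of the list ranged from 8.33 to 8.96 after LBP and from 8.83 to 9.32 after PBS, and all 13 were above receptor background on all arrays. Macrophage markers (8 genes, 7 above background on all arrays) had medians of 0.20 on PBS 2, -0.29 on LBP 1 and from -0.12 to -0.00 on the other arrays. Of these 8 genes, 7 were lower after LBP. The list means ran from 7.02 to 7.33 after LBP and from 7.18 to 7.48 after PBS. Skeletal muscle markers (11 genes, 5 above background on all arrays) were low on PBS 2, at -0.56, but also on LBP 2, at -0.63, and LBP 3, at -0.32, with list means from 5.93 to 7.03 after LBP and from 6.10 to 7.27 after PBS. The part of these lists in the Hox values was not tested, and fewer cells of a type cannot be told apart from less RNA per cell in whole ganglia.

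LBP 2 stood apart among the neck and trunk genes. It was the highest array for 8 of the 15 genes of groups 4 to 8, while 20.1% of all genes had their highest value there. These 8 genes included Hoxc4, Hoxc5 and Hoxc6. LBP 2 was also the highest array for 3 genes of groups 1 to 3, and it was the lowest for Hoxb7 and Hoxd8. Hoxc4, a neck and upper trunk gene, had values of 7.59, 8.04 and 7.69 after LBP and 7.47, 7.66 and 7.49 after PBS. Hoxc5 had values of 5.09, 5.79 and 5.74 after LBP and 5.04, 5.53 and 5.23 after PBS, near the background. LBP 2 also carried more signal for spinal cord and central glia markers, with a median of 0.77 relative to the PBS mean for 13 genes, 3 of which were above background on all arrays, while the other arrays had medians from -0.07 to 0.07. The mean level of that list ranged from 5.43 to 6.29 after LBP and from 5.34 to 5.45 after PBS, and Schwann cell and myelin markers (12 genes, all above background) had a median of 0.38 on LBP 2 and from -0.25 to 0.09 on the other arrays, with list means from 9.55 to 10.14 after LBP and from 9.67 to 9.86 after PBS. The part of either list in these Hox values was not tested.

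Hoxd1 also ran the other way on LBP 2. In the mouse, Hoxd1 is a gene of nociceptors that shapes their connections, and it had values of 7.91, 7.24 and 7.56 after LBP and 7.72, 7.61 and 7.77 after PBS, with LBP 2 the lowest array and a difference of -0.13 (SE 0.16). Hoxc12, below background, had values of 4.99, 5.45 and 4.77 after LBP and 5.06, 4.98 and 5.06 after PBS. Of the remaining genes of groups 12 and 13, all below background and with overlapping groups, Hoxc13 had the largest difference, with values of 5.32, 5.49 and 5.63 after LBP and 5.20, 5.16 and 5.42 after PBS (0.22, SE 0.12). Hoxb13 had a difference of -0.14 (SE 0.11), Hoxa13 of -0.01 (SE 0.10) and Hoxd13 of 0.01 (SE 0.10). Hoxa7 varied least, between 7.66 and 7.74, with an SD of 0.03 over the 6 arrays. The rest of the genes of groups 4 to 8, among them Hoxa6, Hoxb6, Hoxb8, Hoxc8 and Hoxd8, had differences between -0.09 and 0.14.

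**Figure D4:**
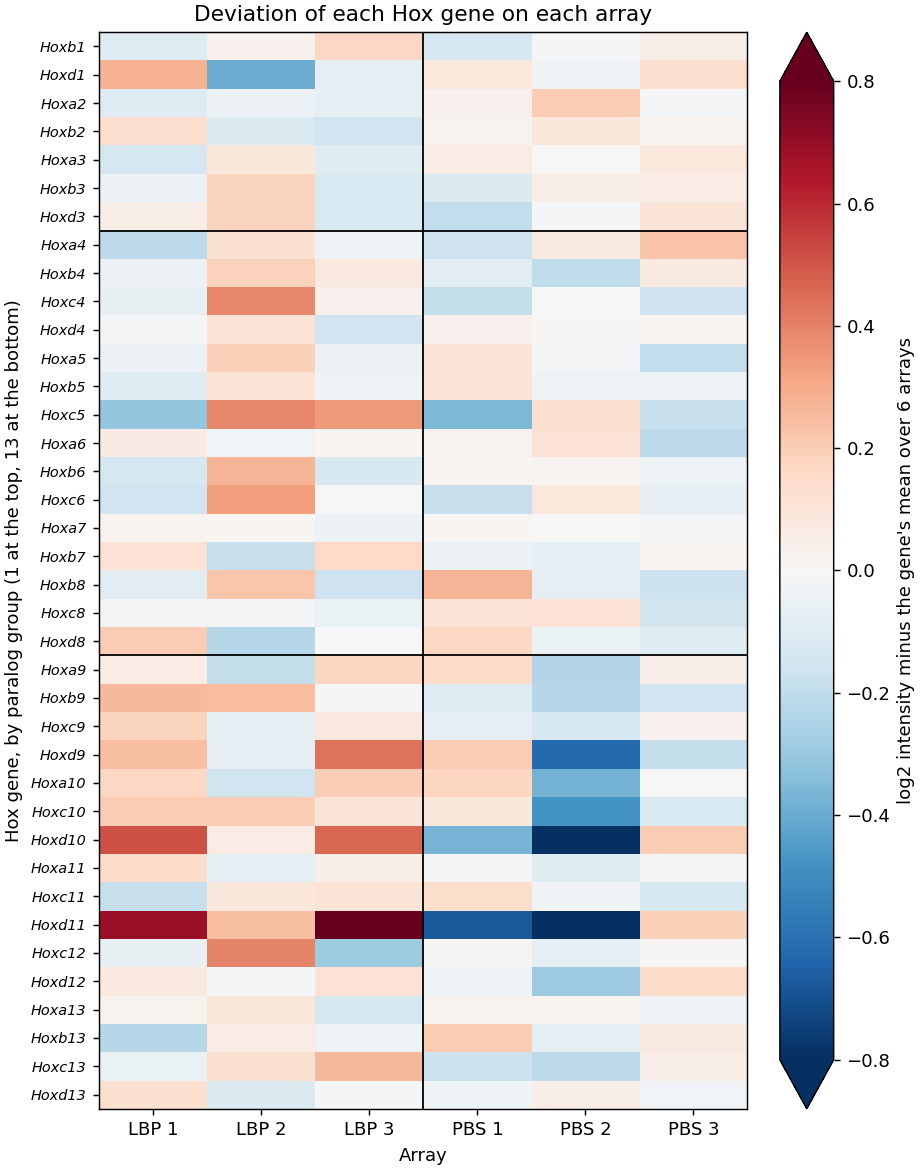
Deviation of each Hox gene reported here from its mean over the 6 arrays (log2 scale), with genes as rows in order of paralog group, arrays as columns and red for values above the mean, blue for values below it. PBS 2 is low for Hoxd9 to Hoxd12, reaching -1.28 for Hoxd11, and LBP 2 is high for genes such as Hoxc4, at 0.39.

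The microRNAs made within the clusters were measured on the same arrays, with whether their probes read precursor or mature RNA unknown. The mature sequences, from RefSeq on GRCm38.p6, are shown since their seeds (bases 2 to 8, in capitals) define 2 families and Mir196a-1 and Mir196a-2 give the same mature RNA.
miR-196a-5p, from Mir196a-1 and Mir196a-2: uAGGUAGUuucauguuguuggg
miR-10a-5p, from Mir10a: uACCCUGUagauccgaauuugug
miR-10b-5p, from Mir10b: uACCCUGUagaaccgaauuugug
Mir196a-2, which lies between Hoxc10 and Hoxc9, had values of 4.90, 4.57 and 5.23 after LBP and 4.44, 4.35 and 4.36 after PBS, with all LBP values above all PBS values and a difference of 0.52 (SE 0.15). In the mouse miR-196 is known to act on the Hoxb8 transcript, whose values of 6.24, 6.54 and 6.16 after LBP and 6.60, 6.24 and 6.15 after PBS overlapped (a difference of -0.02, SE 0.14). Mir10b, within the Hoxd4 locus, had a difference of -0.42 (SE 0.17) with overlapping groups, and Hotair, a long RNA antisense to the C cluster between Hoxc11 and Hoxc12, had one of 0.37 (SE 0.14), also overlapping. All 6 cluster RNAs measured, of 17 listed, were below receptor background on at least some arrays, and Mir196a-2 was below it on every array. None of them reached an adjusted p under 0.05 with limma. Mir10b and Hotair were picked after their values were seen.

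The partner and regulator genes were described list by list. Of 9 Pbx, Meis and Pknox genes, 4 differences were positive and 5 negative, with a median of -0.08, and Pbx3 was lower in every LBP array: 7.09, 7.02 and 6.90 against 7.37, 7.22 and 7.18, a difference of -0.25 (SE 0.10). Of 21 Polycomb genes measured, 12 were positive and the median was 0.04. Bmi1, a subunit of Polycomb repressive complex 1, had values of 7.20, 6.96 and 7.34 after LBP and 6.86, 6.74 and 6.79 after PBS, a difference of 0.37 (SE 0.11) without overlap. Of 13 genes flanking the clusters, Calcoco2 was below receptor background on every array. Its values were 4.89, 5.14 and 4.99 after LBP and 5.46, 5.18 and 5.38 after PBS. The groups did not overlap, with a difference of -0.33 (SE 0.11). Of 15 genes of trunk patterning and retinoic acid, 11 were negative. The brachyury gene T, below receptor background, had values of 5.14, 5.23 and 5.35 after LBP and 4.86, 5.04 and 4.96 after PBS, without overlap and with a difference of 0.28 (SE 0.10). Aldh1a2, a retinoic acid synthesis enzyme picked after its values were seen, had a difference of -0.80 (SE 0.29) with overlapping groups and its highest value, 8.63, on PBS 2. Of 8 limb and motor regulators, 6 were positive, with a median of 0.13, and of 10 Trithorax genes 4 were positive, with a median of -0.01. None of either list had an unadjusted p under 0.05. Of the 82 genes measured over all these lists, 4 were higher and 4 lower at an unadjusted p under 0.05, against 2.07% and 2.65% of all genes, and none had an adjusted p under 0.05 with limma.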

How the data were processed

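L4/5 DRG RNA of 3 LBP and 3 PBS arrays was analysed. The authors summarized probes in R with MAS5 and quantile normalized. Their methods omit outlier arrays by a correlation rule, and whether any array was omitted is not stated. They deposited the log2 intensities, a single value for each symbol and array. For the MAS5 version and the genome build, the sources used here give nothing. The treatment note in the labels names LBP only, and the groups come from the sample titles. The deposited fold changes and p-values of the authors, and 3 columns comparing single arrays, were not used. Of the symbols, 24 turned into dates were left out, leaving 24623 genes. A limma model (version 3.58.1, R 4.3.3) with treatment alone was fitted to all genes (lmFit, eBayes), and p-values were adjusted by Benjamini-Hochberg. The fit was tested on simulated data. The Hox genes, the lists and the tests were chosen with earlier results of these data known. Values on every array are given for Hox genes whose groups do not overlap, with an unadjusted p under 0.05, among the 10 largest SDs or in paralog groups 10 and 11, and for list genes that do not overlap and have an unadjusted p under 0.05. The values of 1 Hox gene, which stays in the counts, are not reported here. Receptor background rests on 1119 olfactory and 310 vomeronasal receptor genes. Symbols of all 39 genes were found in the GRCm38.p6 annotation. The strand could be compared for 22 of them. The deposited strand of 2, Hoxa3 and Hoxa11, was opposite to the annotation, against 2.24% of all 16052 genes compared. Which strand their probes read was not examined. The number of arrays limits the precision. Alternatives were the intensity trend, robust eBayes, centring, renewed quantile normalization, a filter on dim genes, the replicate block, the receptor percentile and leaving out each array.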

Additional observations from a re-analysis of the deposited data

How the results depend on the processing

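The count of 0 Hox genes at an adjusted p under 0.05 with limma held under every alternative run, with 2 to 6 Hox genes at an unadjusted p under 0.05 (4 in the fit above). Leaving out single arrays gave 2 to 6 for that count. Without PBS 2, Hoxd11 and Hoxb9 were left, since Hoxd10 and Hoxc10 passed the threshold no longer. Non-overlapping Hox genes numbered 4 to 8 higher after LBP and 2 to 5 lower when an array was left out, and fewer arrays make such a gap easier to reach. At an unadjusted p under 0.005, the count of 1 became 0 with robust eBayes, 2 with the replicate block and 0 to 2 without an array. The list genes at an unadjusted p under 0.05, 8 in the fit above, numbered 4 to 8 without an array, the lowest without PBS 2. The genes above receptor background numbered 24 at the 95th percentile and 14 at the 99th. Renewed quantile normalization, centring, the intensity trend and the filter on dim genes left these counts within 1.5 times. With the replicate block, Hoxd11 had an adjusted p of 0.113 and Hox genes at an unadjusted p under 0.05 numbered 6. The pairing of replicate numbers was checked by the correlation of deviations of same-numbered arrays over all genes, 0.11, -0.03 and 0.08. Pairs with different numbers ran from -0.24 to 0.17. Whether same-numbered arrays shared handling was not tested. The number of arrays limits what can be resolved, and Hox genes below receptor background carry little information on direction.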
